A study of Caenorhabditis elegans with 4 samples.

Results

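The 8 genes described here encode the core insulin signalling pathway of Caenorhabditis elegans: daf-2, age-1, daf-18, pdk-1, akt-1, akt-2, sgk-1 and daf-16. They were chosen by name, out of 19973 protein-coding genes, and all 8 were found in the annotation. For each gene, every peak was collected that shared at least 1 bp with its window, which is the gene body plus 2000 bp to each side on the WBcel235 assembly (ce11). The peaks mark chromatin recovered with the zinc finger protein SEA-2 by chromatin immunoprecipitation with sequencing (ChIP-seq).

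DAF-2 is the insulin and IGF-like receptor of the worm. It acts through AGE-1, the catalytic subunit of a phosphoinositide 3-kinase, whose lipid product lets PDK-1 activate the kinases AKT-1, AKT-2 and SGK-1, and the lipid phosphatase DAF-18 opposes AGE-1. AKT kinases phosphorylate the FOXO transcription factor DAF-16 and keep it out of the nucleus, and the pathway is known for its control of dauer arrest, stress resistance and adult lifespan.

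All samples belonged to 1 group of 4 biological replicates, and there was no contrast, no untagged strain and no change of insulin signalling to compare. Whole L3 larvae of mixed sex and unknown age came from strain OP193, with the genotype unc-119(ed3) and the transgene wgIs193, which holds sea-2 with a TY1 EGFP FLAG tag at its C-terminus together with unc-119. Every replicate therefore carries the tagged sea-2 copy and the unc-119 mutation and transgene. The antibody is labelled as sea-2, and the sample descriptions name eGFP-sea-2 as the target. For replicates 1 and 2 the labels give a size range of 150 to 350 bp and worms from the CGC (the Caenorhabditis stock centre), and for replicates 3 and 4 sonication with a microtip and worms from the laboratory. Because whole larvae were used, binding in a few cells and weaker binding in many cells cannot be told apart. With 1 group no test was made. Counts are set beside the same counts over all protein-coding genes.

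Deposited lists of several kinds were used. The pooled list, called on all replicates together, held 3912 peaks, and the final list, thresholded on the irreproducible discovery rate (IDR), was its strongest 7.98%. The replicate lists held 23684 peaks in replicate 1 and 30000 in each of the others, and like the pooled list they include background by design. The signal value that the authors give each peak has no stated scale, so it was used only to rank peaks within a list, with rank 1 the strongest. The pooled signal values ran from 30.2 to 233.5 with a median of 35.02, and the weakest final peak had 57.9. The depth is unknown, so a gene without a peak is one where none was detected, not one shown to lack binding.

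The sequences under the peaks at akt-2, daf-2 and sgk-1 are shown first. The akt-2 and daf-2 peaks had the best pooled ranks of the 8 genes, and the sgk-1 peak has a sequence that occurs elsewhere in the genome. All are read on the plus strand of ce11. Capitals in the akt-2 and daf-2 sequences mark matches to GAGAGA on either strand (TCTCTC on the strand shown), and capitals in the sgk-1 sequence mark both arms of an inverted repeat. The regions are chrX:14146724-14147022 for akt-2, chrIII:3036075-3036373 for daf-2 and chrX:16256502-16256629 for sgk-1.
akt-2: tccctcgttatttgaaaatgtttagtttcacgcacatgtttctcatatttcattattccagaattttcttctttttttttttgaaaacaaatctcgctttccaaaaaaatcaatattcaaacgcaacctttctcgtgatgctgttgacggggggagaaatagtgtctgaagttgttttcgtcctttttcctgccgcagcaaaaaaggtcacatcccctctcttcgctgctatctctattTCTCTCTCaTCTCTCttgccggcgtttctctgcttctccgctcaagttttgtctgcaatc
daf-2: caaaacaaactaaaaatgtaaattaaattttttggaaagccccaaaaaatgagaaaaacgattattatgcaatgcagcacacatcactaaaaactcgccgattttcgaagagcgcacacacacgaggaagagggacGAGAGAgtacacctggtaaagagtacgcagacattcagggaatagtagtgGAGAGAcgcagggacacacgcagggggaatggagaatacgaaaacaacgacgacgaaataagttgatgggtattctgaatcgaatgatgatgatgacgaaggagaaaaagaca
sgk-1: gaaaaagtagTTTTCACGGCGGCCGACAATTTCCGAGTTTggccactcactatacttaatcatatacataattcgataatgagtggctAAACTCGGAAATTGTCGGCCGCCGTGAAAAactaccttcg

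GAGAGA was searched on both strands, with overlapping matches counted, in 341 bp centred on each summit. It was chosen with earlier results of these data known. Of the final peaks 67.9% held at least 1 match, against 38.9% of all pooled peaks, while windows 1000 bp away from the same summits held one in 19.6% and 20.8%. The akt-2 peak held 3 matches, all clustered 90 to 99 bp from the summit on the side of the gene, and 11.1% of pooled peaks held 3 or more. It is a final peak, and of the final peaks 44.9% held 2 or more and 20.5% held 4 or more. The daf-2 peak held 2 matches, 13 bp before and 37 bp after its summit, and 19.1% of pooled peaks held 2 or more. Neither the pdk-1 nor the sgk-1 peak held a match. These letters describe the window and do not show a binding site.

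The akt-2 gene (WBGene00000103, X, 14147700 to 14152070, plus strand), which encodes an AKT kinase, had the only final peak among the 8 windows. Of all protein-coding genes 2.37% had a final peak in their window. The peak spanned X, 14146703 to 14147042, lay between genes, and had its summit 827 bp upstream of the single annotated akt-2 start, which was also the nearest annotated start of any gene. Its pooled rank was 241 with a signal of 63.9 and a q-value of 0.0104, 71 ranks inside the end of the final list. Only 1.9% of genes had a pooled peak ranked at least as well in their window. A final summit within a promoter window, which reached 1000 bp upstream and 200 bp downstream from each annotated start, occurred at 1.11% of genes.

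The same akt-2 peak was present in every replicate. It ranked 288 in replicate 1 (signal 28.8), 185 in replicate 2 (14.8), 571 in replicate 3 (15.4) and 319 in replicate 4 (14.1), a mean rank of 341 ± 164 (SD, n = 4). The summits of replicates 1, 2 and 4 fell within 31 bp of each other, whereas that of replicate 3 was farther from the gene, at -157 bp from the pooled summit. In each replicate at most 4.27% of genes had a best peak ranked at least as well. The genes with the most similar best ranks over the 4 replicates were C14F11.7, T13C5.6 and lrch-1, with a summed difference of 0.40 on the log10 scale among 11572 genes compared. All of them are on X and have identical ranks of 265, 326, 583 and 409, so their windows share 1 peak.

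**Figure D1:**
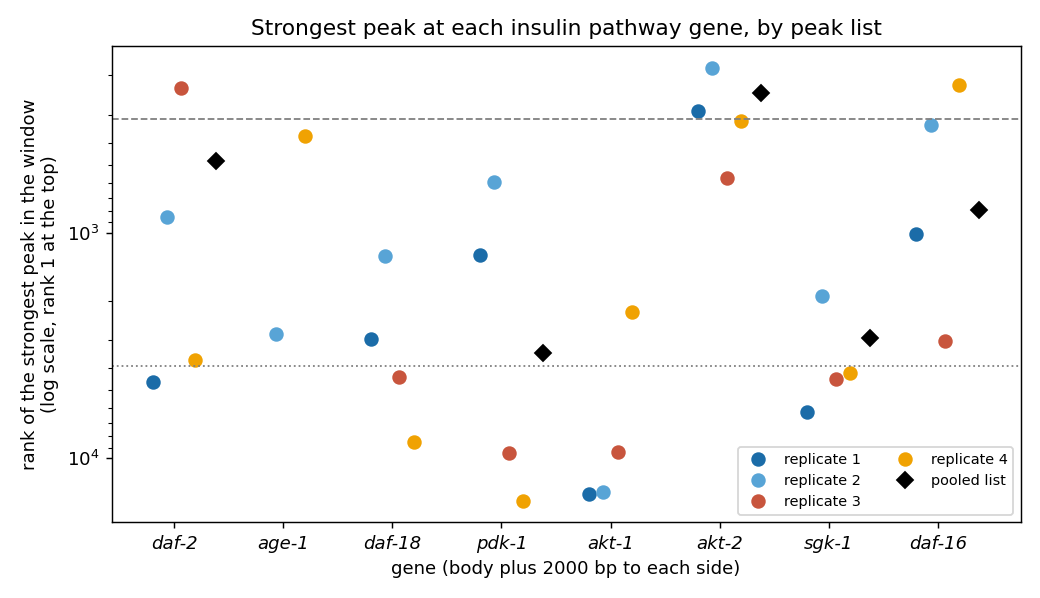
Best rank of any peak in the window of each of the 8 genes, in each replicate list and in the pooled list, on a logarithmic axis where a lower rank is a stronger peak. The dashed line is the size of the final list and the dotted line that of the pooled list (3912); akt-2 lies between 185 and 571 in the replicates, while age-1 has no peak in replicates 1 and 3.

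The receptor gene daf-2 (WBGene00000898, III, 2994514 to 3040846, minus strand) has the longest window, 50.3 kb with 7 annotated starts. Its 1 pooled peak, at III, 3036054 to 3036393, ranked 482 with a signal of 50.4 and a q-value of 0.0758, which is 170 ranks outside the final list. The summit was in a daf-2 intron, 4622 bp downstream of the nearest daf-2 start. It also lay in an exon of linc-143, a long intergenic noncoding RNA gene on the same strand, 1319 bp downstream of that gene's start, so the nearest annotated start was not that of daf-2. A rank at least as good was found at 3.62% of genes.

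The daf-2 intron peak was found in all 4 replicate lists, but its rank varied more than that of the akt-2 peak. It ranked 13969 in replicate 1 (signal 12), 856 in replicate 2 (9.98), 229 in replicate 3 (19.1) and 3690 in replicate 4 (8.92). Relative to the pooled summit its summit lay at 39, 40 and 39 bp in replicates 1, 2 and 3 and at -48 bp in replicate 4. A further region, in a coding exon at III, 3013003 to 3013791, also had a peak in all 4 replicates, at ranks of 17933, 12581, 9068 and 5623, and overlapped no pooled peak. Its summits lay at 3013188, 3013367, 3013522 and 3013604 in replicates 1 to 4. The peaks of replicates 1 and 4 did not overlap each other.

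The phosphoinositide 3-kinase gene age-1 (WBGene00000090, II, 11519328 to 11527054, minus strand) had no pooled peak. Its window held 0 peaks in replicate 1, 4 in replicate 2, 0 in replicate 3 and 3 in replicate 4. The best of them, in replicate 4, had rank 372 and lay between genes past the 3′ end of age-1, 152 bp upstream of the start of its neighbour B0334.10. In replicate 2 a peak at rank 5061 overlapped it, 306 bp upstream of the same start. The replicate 2 peak with the best rank, 2826, lay in a coding exon of age-1.

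The phosphatase gene daf-18 (WBGene00000913, IV, 420011 to 425177, minus strand), whose product opposes AGE-1, also had no pooled peak. Peaks at its annotated start were present in replicates 1, 2 and 3 at ranks of 23208, 1263 and 4348, with summits 413, 12 and 259 bp upstream, and absent from replicate 4. The peaks of replicates 1 and 2 did not overlap each other, and that of replicate 1 was near the end of its list of 23684 peaks. The best peaks of replicates 1 and 4, at ranks 2964 and 8473, were at the other end of the gene, where the nearest start was that of eri-1, a gene of the small RNA pathways.

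The kinase gene pdk-1 (WBGene00003965, X, 1321344 to 1327986, plus strand) had 1 pooled peak in its window, at rank 3415 with a signal of 31.1 and a q-value of 0.919. That peak lay in a coding exon of the next gene, F21E9.2, 51 bp from its start and 8543 bp from the nearest pdk-1 start, and only replicate 3 had it (rank 9535). A pooled rank at least as good was found at 20.9% of genes. The region upstream of pdk-1, at X, 1319530 to 1320418, had a peak in every replicate but none in the pooled list. Its best ranks were 1256, 598, 12565 and 15454 in replicates 1 to 4, so it was among the strongest peaks in replicates 1 and 2 only. The middle of the region lay 1370 bp upstream of the gene. Its best summits differed in position, at 1320005, 1319678, 1320165 and 1320231 in replicates 1 to 4. No replicate 2 peak in it overlapped that of replicate 4.

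The second AKT gene, akt-1 (WBGene00000102, V, 10248905 to 10252845, plus strand), had no pooled peak. Upstream of its start, replicates 1, 2 and 4 each had a peak, at ranks of 14423, 14189 and 2257, with summits 488, 229 and 594 bp from the start. The peaks of replicates 2 and 4 did not overlap each other. The best peak of replicate 3, at rank 9382, lay farther upstream, 2169 bp from the start and nearer to that of the noncoding RNA gene C12D8.25. Of the 5 peaks in the akt-1 window in replicate 4, 2 lay inside its neighbour rop-1.

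The kinase gene sgk-1 (WBGene00004789, X, 16254842 to 16262122, minus strand) had 1 pooled peak, at X, 16256463 to 16256802, in an sgk-1 intron 3495 bp downstream of the nearest start. It ranked 2926 with a signal of 32.1 and a q-value of 0.890, and overlapped a peak in replicates 1 (rank 6258) and 3 (rank 10913) only. The replicate 1 summit was at -188 bp from the pooled summit, outside the pooled peak, and that of replicate 3 at -8 bp. A pooled rank at least as good was found at 18.5% of genes. The peak sequence holds an inverted repeat with arms of 30 bp and has 7 second copies in the genome of at least 50 bp and 90% identity, the longest of 140 bp. It was the only 1 of the 12 pooled peaks in the 8 windows with such a copy, against 6.54% of all pooled peaks. How reads with several matches were placed is not stated, so its position is uncertain. The best replicate ranks at sgk-1 were 6258, 1902, 4470 and 4188, at 4 separate places.

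**Figure D2:**
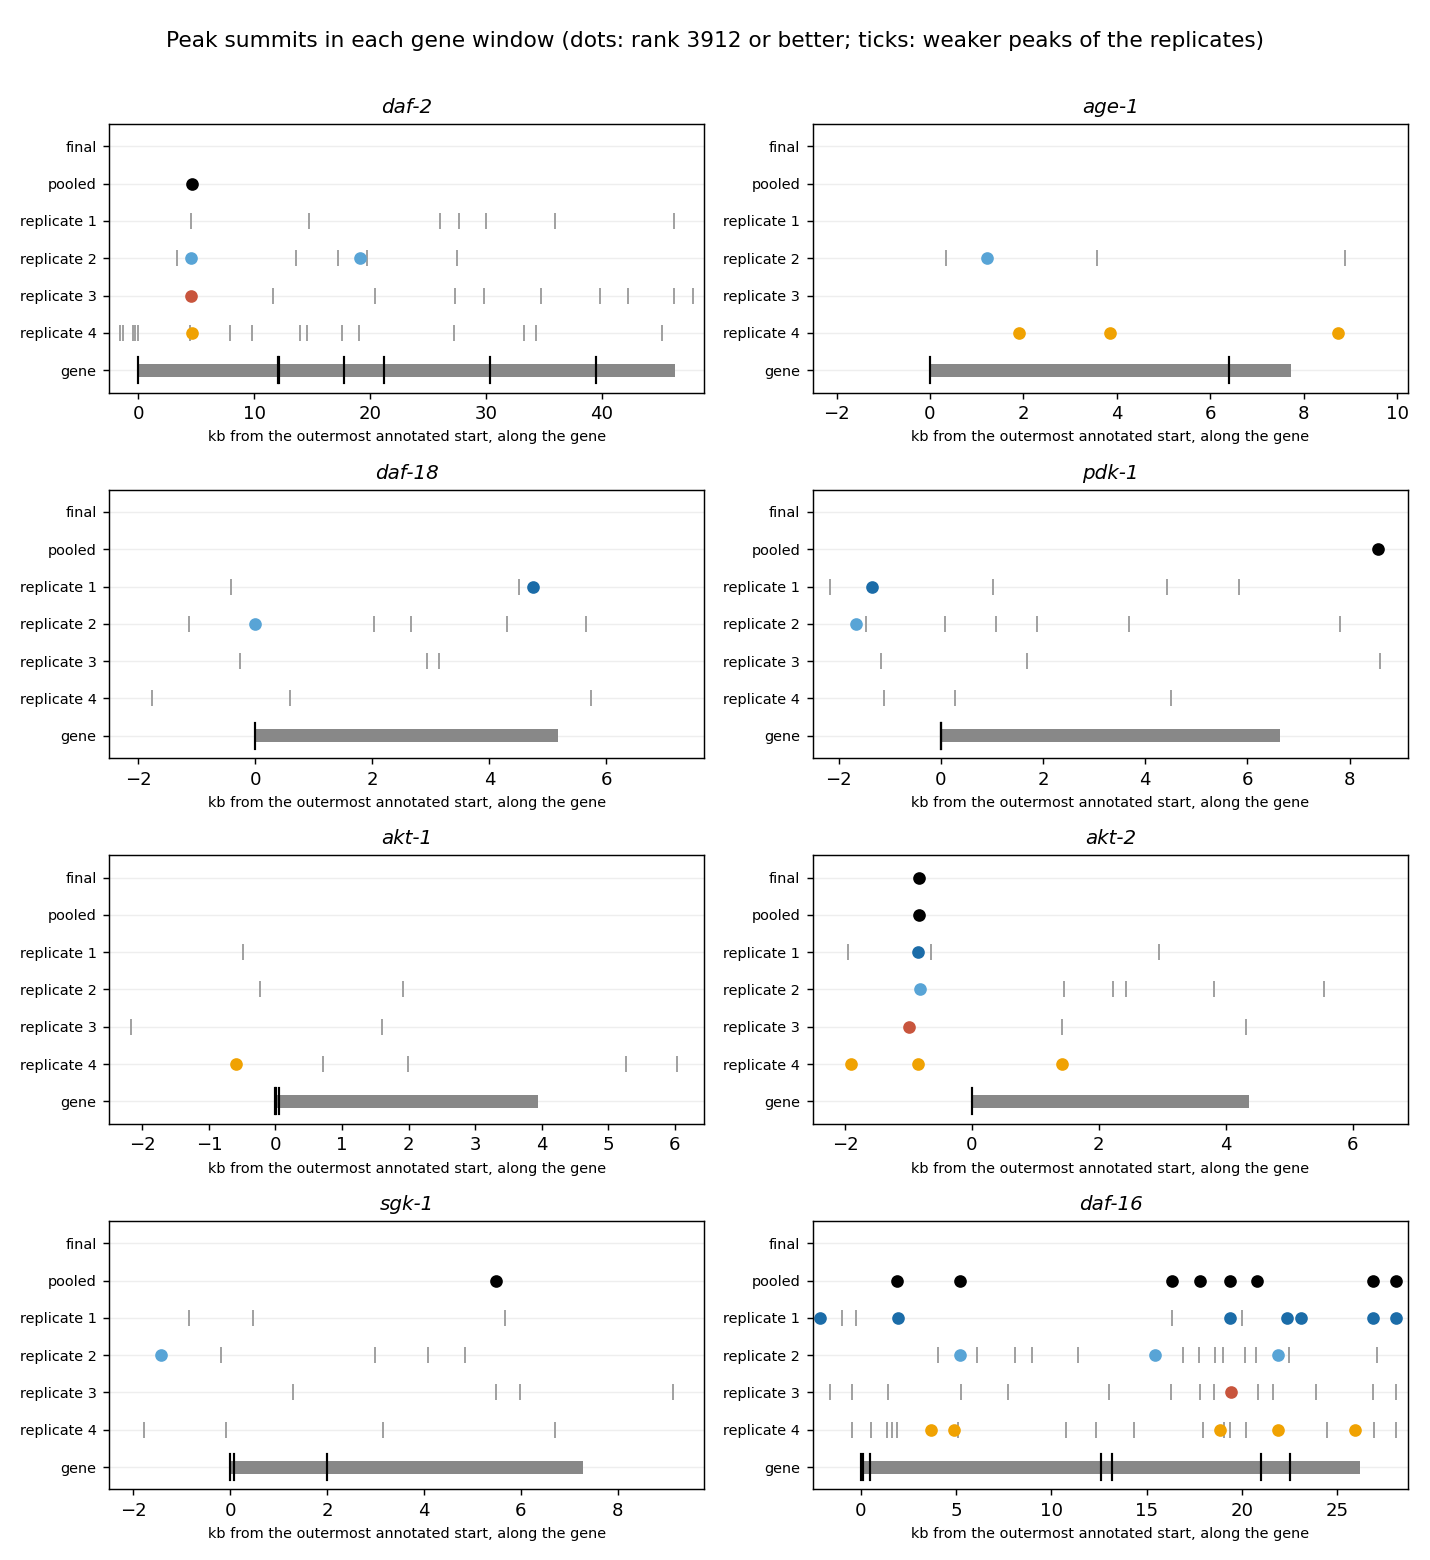
Peaks in the windows of the 8 genes, drawn 5′ to 3′ as distance in kb from the outermost annotated start, with grey bars for the gene body. Black strokes on the gene mark annotated starts, rows are the lists, dots are summits of rank 3912 or better and ticks weaker ones; at akt-2 the 4 replicates, the pooled and the final list line up upstream of the gene, and at daf-16 peaks spread over the gene body.

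The FOXO gene daf-16 (WBGene00000912, I, 10750498 to 10776703, plus strand), the main transcriptional output of the pathway, had 8 pooled peaks in a window of 30.2 kb with 7 annotated starts. Among protein-coding genes 5.23% had 2 or more, and 4 genes, or 0.02%, had 8 or more. The median window of all protein-coding genes is 6027 bp, so these shares are not for windows of equal length. With a flank of 1000 bp in place of 2000 bp, daf-16 had 7. None of the 8 was in the final list, and their ranks ran from 790 to 3902 with signal values from 43.3 down to 30.2. Their q-values ran from 0.270 to 0.960. The best, at 10755548 to 10755887 with a q-value of 0.270, lay in an intron 4758 bp downstream of the nearest daf-16 start and 1485 bp from that of the noncoding RNA gene R13H8.4, and 5.71% of genes had a pooled peak ranked at least as well. Introns of daf-16 held 6 of the summits, and the other 2 lay past its 3′ end, between genes. The peak at rank 2210 had its summit 247 bp upstream of an internal daf-16 start. Noncoding RNA genes, snoRNA genes included, had the nearest start for 6 of the others. These were R13H8.4 at rank 790, F55A3.8 at ranks 853 and 1655, R13H8.5 at ranks 2004 and 2455, and H36N01.2 at rank 2336, 140 bp from the summit.

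No daf-16 pooled peak was among the 3912 strongest peaks in more than 2 replicates. The peak at rank 790 ranked 333 in replicate 2, 20682 in replicate 3 and 2164 in replicate 4, and was absent from replicate 1. The replicate 4 summit was at -307 bp from the pooled summit, and a nearer peak of replicate 4 ranked 28674, while the replicate 2 summit was at 2 bp. The peak at rank 853, past the 3′ end, ranked 1015, 6949 and 14297 in replicates 1, 3 and 4, with summits within 12 bp of the pooled summit, and was absent from replicate 2. A region at 10768838 to 10770084 had peaks in all 4 replicates, at best ranks of 1122, 8243, 3032 and 220, but the strongest summits differed in position, at 10769861 in replicate 1 and 10769326 in replicate 4. The pooled peak in this region, at rank 2004, held 20 GAGAGA matches, a number reached by 11 pooled peaks (0.281%).

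Across the 8 genes, 5 had a pooled peak in their window: daf-2, pdk-1, akt-2, sgk-1 and daf-16. Of all protein-coding genes 23.6% had one. The 8 windows are long, with a median of 10962 bp against 6027 bp, and daf-2 and daf-16 take up 57.7% of their summed length, so the shares are not for windows of equal length. A pooled summit in a promoter window was found at 2 of the 8, akt-2 and daf-16, against 9.25% of genes. Of the 12 pooled peaks, 2 had a q-value under 0.1, against 13.4% of all pooled peaks. An intron of the gene itself held 8 of the 12 summits, 6 of them at daf-16. With an exon of any gene counted before an intron, which moves the daf-2 summit to the linc-143 exon, introns held 58.3% of the 12 and 24.4% of all pooled peaks, and summits between genes were 25% and 46.8%. The 12 were collected from gene windows and all pooled peaks from the whole genome, so these shares are not for like sets.

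At equal numbers, the 3912 strongest peaks of each replicate, 4 of the 8 genes had a peak in replicate 1, 7 in replicate 2, 3 in replicate 3 and 5 in replicate 4, a mean of 4.75 ± 1.71 (SD, n = 4). The shares of all genes were 24.5%, 23.8%, 23.7% and 24%. Both akt-2 and daf-16 had such a peak in every replicate, against 3.65% of genes. At akt-2 this was the same site, whereas no daf-16 region of such peaks was shared by more than 2 replicates. Of the 12 pooled peaks, 2 were found among the strongest of 3 or more replicates, those at akt-2 and daf-2, against 15.8% of all pooled peaks, and 4.1% of genes had such a peak. The akt-2 peak was found in all 4, as were 6.19% of pooled peaks, and 5 of the 12 were found in none, against 19.6%. In the whole replicate lists 3 of the 12 overlapped a peak in all 4, against 34% of pooled peaks. The akt-2 and daf-2 peaks were both recovered when replicate 1 was left out and the other 3 were all required, but only the akt-2 peak when replicate 2, 3 or 4 was left out.

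**Figure D3:**
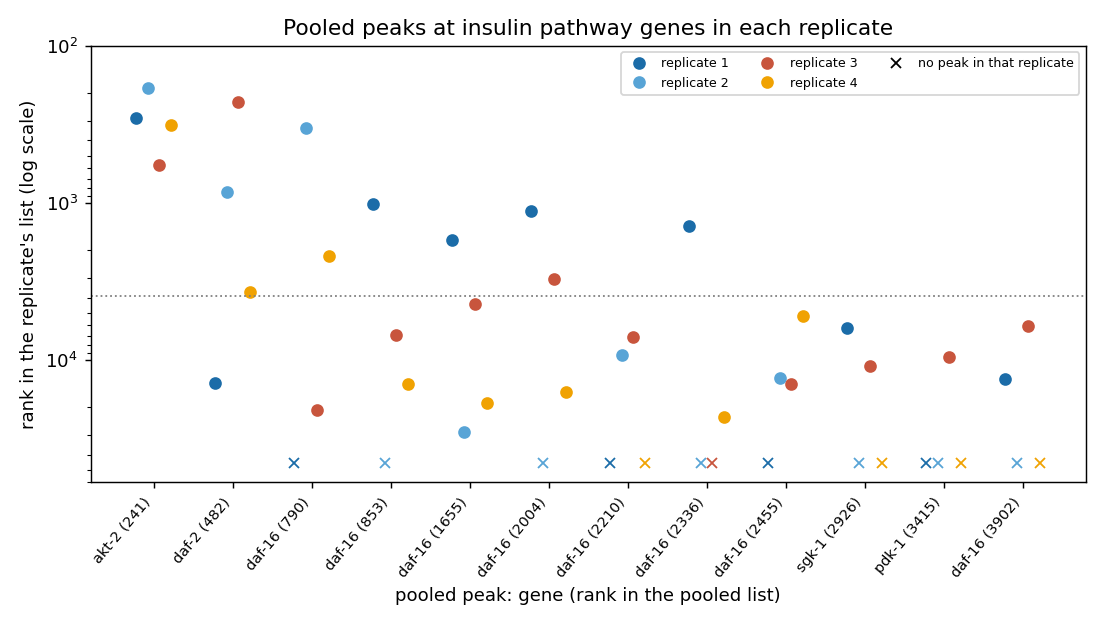
Rank of each of the 12 pooled peaks in each replicate list, on a logarithmic axis. The dotted line marks rank 3912 and crosses stand for no peak; the akt-2 peak is stronger than it in all 4 replicates, the daf-2 peak in 3, and no daf-16 peak in more than 2.

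By best rank, akt-2 was set beside the other genes. In the replicates only 1.27% to 4.27% of all protein-coding genes had a best peak ranked at least as well, so most genes fell below it. The share of all genes whose ranks did not overlap those of akt-2 was not counted. The akt-2 ranks of 185 to 571 did not overlap those of pdk-1 (598 to 15454), daf-18 (1263 to 8473), sgk-1 (1902 to 6258) or akt-1 (2257 to 14423). They overlapped those of daf-16 (220 to 3032), of daf-2 (229 to 4620) and of age-1 in replicate 4. In order of median rank, daf-16, daf-2, daf-18, sgk-1, pdk-1 and akt-1 each overlapped the next. The windows ran from 7941 to 50333 bp, so best ranks were not compared at equal length. At daf-16 the best peaks of the 4 replicates lay at different places, and at daf-2 that of replicate 1 was not the intron peak.

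Peak density in the whole replicate lists gave another order. It was highest at daf-16, with 5.21 ± 1.36 peaks per 10 kb of window (SD, n = 4), and 90.8% of genes were at or below that mean. The values at akt-2, pdk-1 and daf-18 were 4.78 ± 1.69, 4.23 ± 1.80 and 4.09 ± 1.64. Below them came sgk-1 with 3.55 ± 0.724 and akt-1 with 3.15 ± 2.18, near the median of all genes, 2.95. The lowest were daf-2 with 2.04 ± 0.937 and age-1 with 1.49 ± 1.76, where 26.2% and 14.6% of genes were at or below the mean. Neighbours in this order differed by less than the larger of their SDs.

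**Figure D4:**
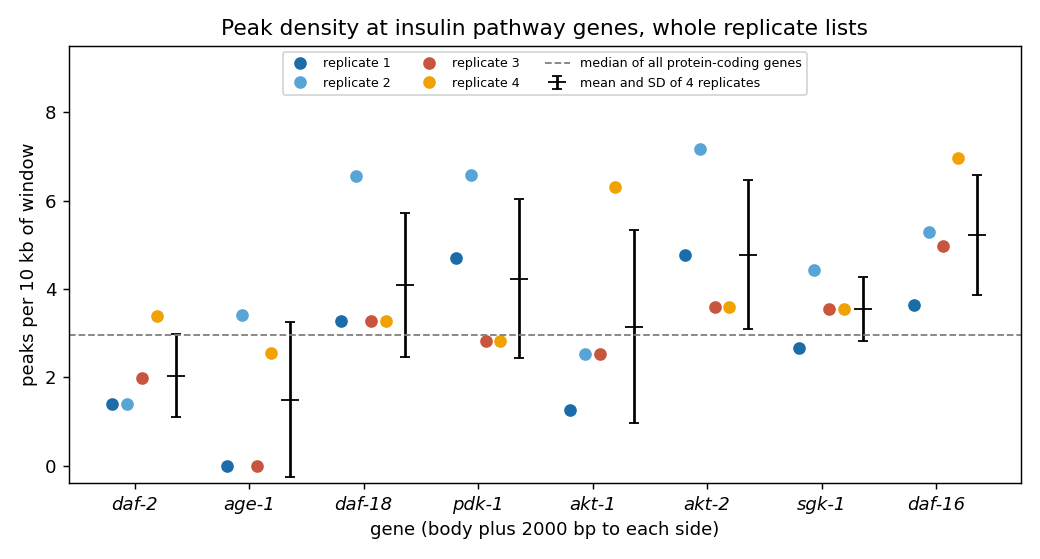
Peaks per 10 kb of window in the whole list of each replicate (points) with the mean and SD (n = 4) for each of the 8 genes; the line marks the median over all protein-coding genes, 2.95. All 4 points of akt-2, daf-18 and daf-16 lie above the line, and 3 of 4 of daf-2 and of age-1 lie below it.

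Summed over the 8 windows, the density was 2.43, 3.80, 2.86 and 4.22 peaks per 10 kb in replicates 1 to 4, which averages 3.33 ± 0.824 (SD, n = 4). The same sum over all protein-coding windows was 3.06 ± 0.326. The ratio of these sums was below 1 in replicates 1 and 3 (0.943 and 0.906) and above 1 in replicates 2 and 4 (1.15 and 1.31), so the difference was within the spread between replicates. In the pooled list the density was 0.859 peaks per 10 kb in the 8 windows and 0.426 over all windows, a ratio of 2.02, with 8 of the 12 peaks at daf-16. Merging overlapping replicate peaks gave 107 regions at the 8 genes, of which 61.7% were in a single replicate, against 61.6% of all regions. Regions in all 4 replicates numbered 6, or 5.61% against 3.58%. A region chains overlapping peaks, so the peaks of any pair of its replicates need not overlap each other.

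GC content was read at the pooled summits. In 101 bp at the summit it was 43.6% at akt-2 and 51.5% at daf-2, which is 17.3 and 15.8 percentage points above windows 250 bp to each side. The weaker peaks at pdk-1 and sgk-1 were 15.8 and 6.93 points above theirs. The mean difference was 12.97 points over the final peaks and 4.72 points over all pooled peaks. At daf-16 the difference ran from -13.4 to 4.95 points, and 5 of the 8 peaks had less GC than their flanks.

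Other genes around the pathway were read in the same way, from 4 lists. Of 82 listed genes 81 matched, and 22 of these (27.2%) had a pooled peak, near the 23.6% of all genes. A final peak was found at 5 of the 81, and at 2.37% of all genes. Insulin-like ligands had a pooled peak at 7 of 39 genes, where ins-5 and ins-6 share 1 peak. Final peaks were at ins-37 (rank 67, signal 93.1) and ins-17 (rank 79, signal 87.5). Their summits lay 23 and 6 bp from the starts of the noncoding RNA genes F08G2.13 and F56F3.11, and the third ligand was ins-13 at rank 617, with a summit 42 bp from the start of C17C3.23. Regulators of the kinase cascade had a pooled peak at 4 of 13 and no final peak. The strongest were at sdf-9 (rank 863), let-363, the TOR kinase (rank 3127), and pptr-1, a phosphatase subunit (rank 3394). The let-363 summit lay 15913 bp from the nearest let-363 start and 2000 bp from that of vep-1.

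Partners and regulators of DAF-16 had a pooled peak at 7 of 16 genes, with final peaks at 3. Of all protein-coding genes 23.6% had a pooled peak and 2.37% a final peak. The list was drawn up with earlier results of these data known. The 14-3-3 genes ftt-2 and par-5, whose products bind phosphorylated DAF-16, had peaks at ranks 3 (signal 198) and 68 (signal 93.0), and cbp-1, an acetyltransferase, at rank 247 (signal 63.1). Their summits lay 603, 128 and 921 bp upstream of the nearest start of the named gene, and the nearest start of any gene was that of F52D10.7, M117.11 and R10E11.10. DAF-16 target genes had a pooled peak at 4 of 13 and no final peak. The strongest were in the windows of hsp-12.6 (rank 477), which encodes a small heat shock protein, sip-1 (rank 982), and pck-1 (rank 3587), the phosphoenolpyruvate carboxykinase gene. The hsp-12.6 summit lay 2448 bp from its own start and 14 bp from that of F38E11.24, and the sip-1 summit 1405 bp from its own start and 84 bp from that of urm-1.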

How the data were processed

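ChIP-seq peak lists on ce11 were analysed, 1 for each of 4 biological replicates plus the pooled and final lists. Per the file headers and deposited file records, each replicate list was called against 1 control file shared by all, the pooled list from the 4 alignments together, and the final list by IDR. The authors' signal value per peak, of unstated scale, was used only to rank and describe peaks within a list. The deposited −log10 q-value was converted to a q-value, and the deposited summit offset to a 1-based position. The depth is unknown, and the aligner, peak caller and IDR threshold were not given in the sources used here. Labels call the replicates biological, and nothing more is stated of their separate origin. Lists on ce10 were not used.

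Windows, annotated starts and classes came from Ensembl release 115 models on WBcel235, and sequence from the RefSeq FASTA of that assembly. Annotated starts can be trans-splice sites. In counts, a pooled peak was found in a replicate when at least 1 bp was shared with its 3912 strongest peaks. Other numbers of strongest peaks, or whole lists, are named where used. Ranks and presence of single peaks were read from the whole replicate lists, with the same overlap of at least 1 bp. Second copies were searched with blastn 2.17.0 (word size 16). Python 3.11.15, pandas 2.3.3 and NumPy 2.4.6 were used, and window assignment was tested on simulated data. A peak in a window does not show that the gene is regulated.

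The genes and lists were chosen with earlier results of these data known. Named were all 8 genes, the gene with the nearest start to a named summit where that is another gene, of each other list the genes with a final peak and the 3 with the strongest pooled peak, and the 3 genes most like akt-2. Alternatives varied the flank, the overlap rule, the promoter window, the list strength, the number of strongest peaks and the replicates.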

Additional observations from a re-analysis of the deposited data

Results flagged for a closer look

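The peak density at daf-18 in replicate 2 stood apart from the other replicates, at 6.55 peaks per 10 kb of window against 3.27 in each of replicates 1, 3 and 4. This is 6 peaks against 3. Of 15 sets of values examined, this was the only 1 set apart in this way. The rule is meant to set apart about 1 in 20 by chance. That rate does not hold here, because the counts are small and replicates 1, 3 and 4 are tied. With such a tie, any other value in replicate 2 would have been set apart.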

How the results depend on the processing

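Of 40 alternative values, 26 kept to within the limits set for a change and 14 moved. Taking only the stronger 50% of a list left 0 of the 8 genes with a final peak (1 in the full list), 3 with a pooled peak (5), 5 pooled peaks (12) and 1 gene with a promoter summit (2). The promoter count was also 1 with a window of 500 bp upstream to 100 bp downstream, where akt-2 is lost because its summit lies 827 bp upstream. With as many strongest peaks as the final list holds, 1000 or 10000 per replicate, the mean number of genes with a peak was 1, 2.5 and 6.75 (4.75 with 3912), and pooled peaks found in 3 or more replicates numbered 0, 1 and 2 (2). Leaving out each replicate in turn gave 1 to 2 such peaks, 4 to 5.33 genes, and 3.03 to 3.63 peaks per 10 kb. That density was 0.644 with the strongest peaks alone, since fewer peaks enter. A flank of 1000 bp left 10 pooled peaks, without that of pdk-1 and 1 of the 8 at daf-16. Unknown depth limits every absent peak. No paired analysis was possible because there is 1 group.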
